A study of Mus musculus with 4 samples.

Results

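The AP-2, Meis and Pbx factors described here are 6 genes for DNA-binding proteins, Tfap2a, Tfap2b, Tfap2d, Meis1, Meis2 and Pbx3, out of 31053 genes measured by single-nucleus RNA sequencing of the mouse superior colliculus. They were selected by symbol, and each symbol was found once in the deposited matrix. They had been picked with their levels across the neuron subtypes of these same libraries in view, so the levels below describe the 6 genes and no test was made on them. The tissue came from C57BL/6J mice of 4 stages, embryonic day 19 (E19) and postnatal days 4, 8 and 21 (P4, P8 and P21). Each stage was 1 library made from several animals together; the sources used here do not say how many, or of which sex. No genotype or treatment separates the groups, and age is the only factor. The authors had sorted the 9724 nuclei into 9 classes, and the neurons into 13 excitatory subtypes (EN1 to EN13, 4093 nuclei) and 12 inhibitory subtypes (IN1 to IN12, 3459 nuclei).

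AP-2 proteins bind GC-rich palindromes as dimers, and the family is best known for its roles in neural crest, epidermis, kidney and retina. Tfap2b is also known from GABAergic interneurons, and Tfap2d from the dorsal midbrain and retinal ganglion cells. Meis and Pbx proteins are homeodomain proteins of the TALE group that bind DNA together and act as partners of Hox and other factors. Meis2 has been linked to the specification of the optic tectum in birds, a counterpart of the superior colliculus. Meis1 has been linked to progenitors and limb, eye and blood development, and Pbx3 to the brainstem neurons that drive breathing at birth.

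The libraries held 2585, 2386, 2504 and 2249 nuclei from E19 to P21, and the median nucleus had 6828 unique molecular identifiers (UMIs, each counting 1 captured transcript) at E19 and 11745 at P21. Levels are UMIs summed over the nuclei of a class or subtype in 1 library and scaled to a total of 1000000 (CPM). Values in parentheses are 95% intervals for counting error only, because no stage had a replicate library. Ratios are on the log2(CPM + 5) scale, which understates differences of low genes. The deposited classes carried their own markers highest in all 4 libraries for inhibitory neurons (Gad1, Gad2, Slc32a1), the oligodendrocyte lineage, microglia, endothelial, vascular leptomeningeal and dividing cells, in 3 of 4 libraries for excitatory neurons (Slc17a6, Slc17a7, Slc17a8), and in 2 of 4 for astrocytes. The class labelled epithelial did not carry its markers. Ttr, Folr1 and Kl were all at 0 at E19, and 2 of the 3 were at 0 at each other stage. Vascular leptomeningeal markers (Col1a1, Col1a2, Dcn, Lum) summed to 638 to 1083 CPM there. Astrocyte markers (Aqp4, Gja1, Slc1a3, Slc1a2) summed to more there in each library, 702 to 1293 CPM. In vascular leptomeningeal cells the astrocyte markers summed to 1437 to 3151 CPM, above the markers of that class itself at P4, P8 and P21. A UMI can also come from RNA set free from other cells. The level of each gene in the pooled nuclei of microglia and of the endothelial, vascular leptomeningeal and epithelial classes, 75 to 224 nuclei per library with median depths of 5106 to 5788 UMIs, is therefore given as a reference, called the non-neural level below. Only 9 barcode sequences occurred in more than 1 library.

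In GENCODE M21 on GRCm38 (mm10), Tfap2d (ENSMUSG00000042596) lies on chromosome 1 from 19103022 to 19166346 and Tfap2b (ENSMUSG00000025927) from 19208914 to 19238576, both on the plus strand with 42.6 kb between them. The other 4 lie on the minus strand. Tfap2a (ENSMUSG00000021359) is on chromosome 13 from 40715302 to 40738376 and Meis1 (ENSMUSG00000020160) on chromosome 11 from 18879817 to 19018985. Far apart on chromosome 2 are Pbx3 (ENSMUSG00000038718) from 34171457 to 34373142 and Meis2 (ENSMUSG00000027210) from 115863064 to 116065839. Below are the 250 bases before a RefSeq start site of each AP-2 gene (GRCm38.p6), shown because the neighbours Tfap2b and Tfap2d had different class patterns and because the Tfap2a window is shared with an antisense gene. The Tfap2d window ends directly before the GENCODE start of the gene, whereas the Tfap2b and Tfap2a windows lie inside their annotated genes. Capitals mark CG dinucleotides, and each line reads 5′ to 3′ on the strand of the gene.
Tfap2d, chr1:19102772-19103021, plus strand: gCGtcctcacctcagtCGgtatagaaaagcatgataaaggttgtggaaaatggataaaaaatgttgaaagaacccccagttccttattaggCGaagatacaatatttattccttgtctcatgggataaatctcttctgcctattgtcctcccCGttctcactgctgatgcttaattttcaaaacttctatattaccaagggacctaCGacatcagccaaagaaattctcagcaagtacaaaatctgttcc
Tfap2b, chr1:19211804-19212053, plus strand: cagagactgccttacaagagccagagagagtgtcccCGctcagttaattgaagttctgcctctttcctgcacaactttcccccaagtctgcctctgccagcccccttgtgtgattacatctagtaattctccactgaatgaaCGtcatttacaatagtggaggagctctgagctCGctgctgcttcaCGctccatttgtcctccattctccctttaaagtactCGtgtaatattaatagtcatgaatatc
Tfap2a, chr13:40734921-40735170, minus strand: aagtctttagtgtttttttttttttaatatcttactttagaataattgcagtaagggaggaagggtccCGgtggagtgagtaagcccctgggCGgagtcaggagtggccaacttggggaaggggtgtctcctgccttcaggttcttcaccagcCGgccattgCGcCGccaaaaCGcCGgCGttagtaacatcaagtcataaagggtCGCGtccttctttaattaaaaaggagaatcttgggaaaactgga
The printed Tfap2d window was 39.6% G and C with 5 CG dinucleotides. The Tfap2b window had 46.4% with 5, and the printed Tfap2a window 47.6% with 10. Medians over all 32851 windows of the table were 52.4% and 6. Tabulated but not printed were Tfap2d windows of 38.8% with 4 and 55.2% with 7, and a Tfap2a window of 60.4% with 10. Of the printed Tfap2a window, 242 bases were annotated as exon of Gm26688, a noncoding gene on the opposite strand. None of the 8 windows tabulated for Tfap2a, Tfap2b, Tfap2d, Meis1 and Meis2 held, on either strand, the AP-2 palindrome GCCNNNGGC (found in 13.7% of all windows), the Meis core TGACAG (15.9%), the Pbx-type octamer TGATTGAT (0.67%) or the joint Pbx and Meis site made of TGAT directly before TGACAG (0.198%), the last of which contains the Meis core. Only these exact spellings were searched. GCC and GGC at another spacing, as in GCCCCTGGGC of the printed Tfap2a window, were not counted. The windows of 1 gene can overlap each other. Windows matched 5 of the 6 genes by symbol, all but Pbx3.

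Tfap2d was an excitatory-neuron gene at every stage. In excitatory neurons it stood at 289 (279 to 298) CPM at E19, then 108 (102 to 113) at P4, 92.5 (87.4 to 97.8) at P8 and 61.2 (57.3 to 65.4) at P21. In inhibitory neurons it stood at 17.1 (13.95 to 20.8) CPM at E19, then 3.60 (2.28 to 5.40) at P4, 3.43 (2.43 to 4.71) at P8 and 1.68 (1.01 to 2.63) at P21. All 4 excitatory values lay above all 4 inhibitory ones. The log2 ratio of excitatory to inhibitory neurons was 3.73 (3.50 to 3.96) at E19, then 3.71 (3.43 to 3.96) at P4, 3.53 (3.32 to 3.72) at P8 and 3.31 (3.11 to 3.47) at P21. Tfap2d was the only member of the 6 that was higher in excitatory neurons by a log2 ratio of 1 or more in all 4 libraries, as were 0.579% of all genes that reached 20 CPM. No member was that much higher in inhibitory neurons in all 4 libraries, against 0.547% of genes. The size of the ratio depended on the constant added: with 20 CPM in place of 5 it was 3.06 at E19 and 1.91 at P21. The non-neural level in CPM was 17.8 at E19, then 8.61 at P4, 3.13 at P8 and 2.18 at P21, and in no library did any of the 12 inhibitory subtypes stand above the interval of that level. Nuclei with a Tfap2d UMI made up 28.9% of excitatory and 3.14% of inhibitory neurons at E19 and 10.4% and 0.270% at P21 after every nucleus was thinned to 2000 UMIs (48.8%, 8.51%, 41.9% and 1.76% unthinned). The thinned share of the non-neural nuclei was 2.67% at E19 and 0.446% at P21.

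Within excitatory neurons the leading subtype for Tfap2d differed between stages. EN2 led at E19 with 702 (667 to 739) CPM, held 44.8% of the Tfap2d UMIs of the class with 21.4% of its nuclei, and stood at 172 (149.8 to 197) at P4, 48.2 (33.7 to 66.7) at P8 and 81.04 (61.8 to 104) at P21. EN4 stood at 379.7 (331 to 434), 243 (206 to 285), 216 (193 to 241) and 119.8 (102 to 140.3) CPM from E19 to P21. It was the only subtype at 50% or more of the leading level in all 4 libraries. EN8 held its level over the first stages, with 178 (144 to 218), 199 (174 to 228), 224 (199 to 251) and 121 (103 to 141) CPM, and was first at P8 and P21, where its interval overlapped that of EN4. EN13 led at P4 with 281 (209.7 to 368) CPM from 22 nuclei, overlapping EN4. EN5 and EN6, by contrast, were at 13.9, 2.22, 0.721 and 1.78 and 9.91, 6.02, 1.74 and 1.91 CPM, inside or below the interval of the non-neural level at each stage. The subtypes above that interval in all 4 libraries were EN1, EN2, EN3, EN4, EN8, EN9 and EN13.

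Tfap2b, the chromosomal neighbour of Tfap2d, was found in subtypes of both neuron classes and stood lowest at P21 in both. In excitatory neurons it stood at 188 (181 to 197) CPM at E19, then 108 (103 to 114) at P4, 171 (164 to 179) at P8 and 56.5 (52.7 to 60.5) at P21. In inhibitory neurons it stood at 359 (344 to 375) CPM at E19, then 208 (197 to 219.9) at P4, 261 (252 to 271) at P8 and 87.5 (82.1 to 93.1) at P21. At each stage the inhibitory value was the higher one, with log2 ratios of excitatory to inhibitory neurons of −0.91 (−0.999 to −0.83) at E19, then −0.91 (−1.01 to −0.81) at P4, −0.59 (−0.67 to −0.51) at P8 and −0.59 (−0.71 to −0.46) at P21. In both classes P4 lay below E19 and P8 above P4, and P21 lay below all other stages. The difference of P8 from P4 in excitatory neurons, 0.64 (0.55 to 0.73) on the log2 scale, was 0.0004 when the subtypes present in both libraries were weighted alike. The level outside neurons was lower at P21 too: the non-neural level in CPM was 53.4 at E19, then 36.6 at P4, 28.1 at P8 and 6.54 at P21, and the part of this free RNA in the neuronal values was not tested.

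The level of Tfap2b was highest in a few subtypes of each class, although EN1 held 33.96% of the excitatory and IN2 30.4% of the inhibitory Tfap2b UMIs at E19. IN8 stood at 1457 (1343 to 1578), 861 (770.3 to 959.98), 798 (736 to 865) and 243 (207 to 283) CPM from E19 to P21. IN9 stood at 948 (801 to 1115), 704 (564 to 868), 639 (579 to 704) and 327 (278 to 382) CPM, and the order of IN8 and IN9 was within counting error at P4 and P21. Among excitatory neurons EN4 stood at 837 (764 to 917), 639 (578 to 704), 577 (539 to 618) and 164 (143 to 188) CPM. EN13 stood at 899 (757 to 1059), 508 (410.3 to 621), 516 (464 to 573) and 200.01 (165 to 240.1) CPM, and its interval overlapped that of EN4 in each library. IN8, IN9, EN4 and EN13 were the subtypes at 50% or more of the leading level in all 4 libraries. Above the interval of the non-neural level in every library were EN1, EN3, EN4 and EN13 and IN1, IN2, IN4, IN6, IN8 and IN9. In these 10 subtypes the log2 ratio of P21 to E19 ran from −1.02 (−1.37 to −0.67) in IN4 to −2.56 (−2.82 to −2.31) in IN8. At P21 the remaining subtypes of both classes stood at 0 to 8.10 CPM.

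Tfap2a, the founding member of the family, was scarce, and EN13 had its highest level. It stood at 4.86 (3.67 to 6.31), 3.16 (2.32 to 4.20), 6.22 (4.94 to 7.72) and 3.29 (2.42 to 4.36) CPM in excitatory neurons from E19 to P21. Inhibitory neurons had 7.21 (5.22 to 9.72), 5.32 (3.69 to 7.44), 4.51 (3.35 to 5.95) and 4.78 (3.59 to 6.23) CPM, and the intervals of the classes overlapped at each stage. EN13 led at all 4 stages with 56.95 (26.04 to 108), 54.01 (25.9 to 99.3), 36.3 (23.5 to 53.5) and 22.6 (12.04 to 38.7) CPM, from 9, 10, 25 and 13 UMIs. IN4 stood at 54.7 (32.9 to 85.3), 26.6 (13.7 to 46.5), 22.7 (13.5 to 35.9) and 14.1 (8.06 to 22.9) CPM. EN13 and IN4 differed by no more than their intervals at any stage. EN13 was above the non-neural level in all 4 libraries and IN4 in 3 of them, all but P21. IN8 at E19 and EN3 and IN1 at P8 were above it too. At P21 IN9, IN4, IN8 and IN1 all lay at 50% or more of the EN13 level, with 14.7 (5.90 to 30.2) CPM in IN9. In 7 of the 25 subtypes (EN6, EN8, EN9, IN5, IN7, IN11 and IN12) no Tfap2a UMI was counted in any library with at least 20 nuclei of that subtype, where a count of 0 allows up to 2.24 to 25.6 CPM.

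**Figure D1:**
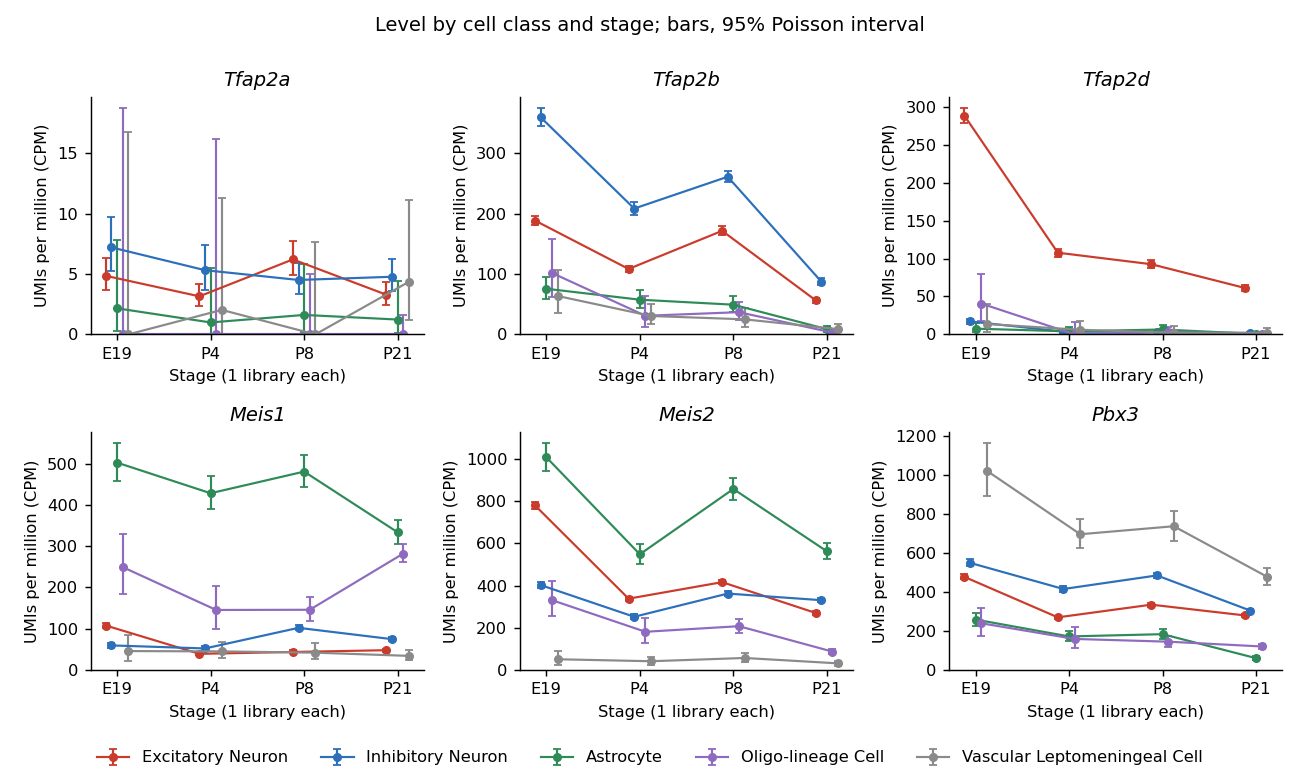
Level of each gene (CPM, vertical axis) in 5 classes at the 4 stages (horizontal axis), with 95% Poisson intervals as bars. Among the 5 classes drawn, Tfap2d is high only in excitatory neurons and Tfap2b is highest in inhibitory neurons. Meis1 and Meis2 are highest in astrocytes and Pbx3 in vascular leptomeningeal cells among these 5. The class labelled epithelial, not drawn, had more Pbx3 at P4, P8 and P21.

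**Figure D2:**
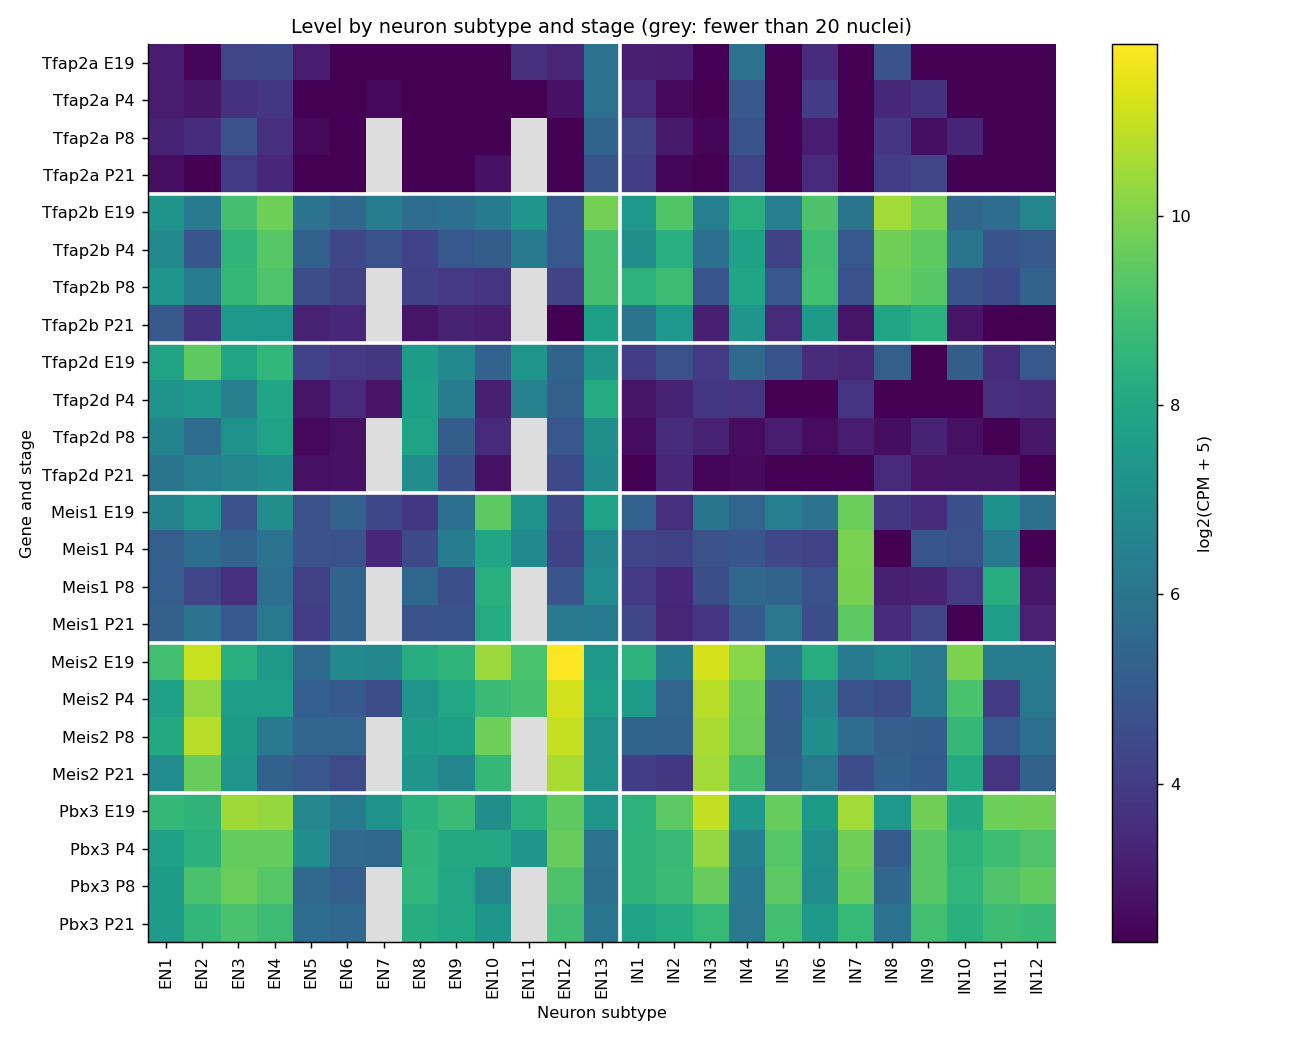
Level of each gene at each stage (rows) in the 25 neuron subtypes (columns) as log2(CPM + 5), with grey for fewer than 20 nuclei. Bright cells show EN12, EN2 and IN3 for Meis2, IN7 for Meis1, IN8 and IN9 for Tfap2b, and excitatory subtypes alone for Tfap2d.

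The AP-2 genes were then compared within single nuclei. Among excitatory neurons with a Tfap2b UMI, a Tfap2d UMI was present in 55.9% (51.8 to 59.9) at E19, then 47.7% (42.8 to 52.6) at P4, 62.6% (57.4 to 67.6) at P8 and 69% (62.6 to 74.9) at P21. Among those without one it was present in 43.03% (39.4 to 46.7) at E19, then 30.7% (27.5 to 34.1) at P4, 22.3% (18.7 to 26.2) at P8 and 28.3% (24.2 to 32.6) at P21, so the intervals of the class as a whole were apart at every stage. Median depths of the 2 sets of nuclei were 14889 and 13759 UMIs at P8 and 19552 and 19607 UMIs at P21. With nuclei thinned to 2000 UMIs the shares with and without Tfap2b were 31.05% and 28.3% at E19, then 25.1% and 13.4% at P4, 22.8% and 11.4% at P8 and 12% and 10.2% at P21, and the intervals overlapped at E19 and P21. Within EN1, EN2, EN3, EN4, EN8 and EN13 taken one by one, the unthinned intervals were apart only in EN1 at E19 and EN2 at P8, and the thinned ones in none. In some the share was the lower one with Tfap2b, as in EN2 at E19, with 65.6% with and 72.6% without. In EN1 and EN3 the unthinned share was the higher one at each stage, as in EN1 at E19, with 54.4% and 36.1%. After thinning it was the lower one at P8 and P21 in EN1 and at P21 in EN3. Only 1 to 8 EN4 and 1 to 5 EN13 nuclei per library had no Tfap2b UMI, so their unthinned intervals were too wide to decide. Subtypes differed in how they combined the genes. In EN4 nearly all nuclei had Tfap2b (76 of 78 at E19), whereas in EN8 most nuclei with Tfap2d had none: at P8, 9 of the 56 EN8 nuclei with a Tfap2d UMI had a Tfap2b UMI. Tfap2a was found mostly in nuclei with Tfap2b, a pair that was not compared within subtypes. EN13, EN3 and EN4 held 55.4%, 48.9%, 76.8% and 85.4% of the excitatory Tfap2a UMIs from E19 to P21, and most of their nuclei had Tfap2b. At P8 a Tfap2b UMI was found in 52 EN13, 73 EN3 and 93 EN4 nuclei and not in 1, 6 and 1. How much of the pairing came from shared subtypes was not tested. Excitatory neurons with a Tfap2a UMI had a Tfap2b UMI in 88.6% (75.4 to 96.2) at E19, then 76.5% (58.8 to 89.3) at P4, 93.6% (82.5 to 98.7) at P8 and 93.9% (79.8 to 99.3) at P21, against 43.3%, 33.2%, 39.6% and 30.5% of those without. In inhibitory neurons these shares were 74.4%, 76.9%, 84.1% and 75.7% against 55.7%, 45.9%, 48.4% and 38.5%. These shares rest on 26 to 47 nuclei with Tfap2a per class and library. The intervals were apart everywhere except in inhibitory neurons at E19; after thinning, with 5 to 15 such nuclei, they overlapped at all 4 stages in inhibitory neurons and at P8 and P21 in excitatory neurons.

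Meis2 was concentrated in 2 excitatory subtypes and 1 inhibitory subtype, EN12, EN2 and IN3, at every stage. In excitatory neurons as a whole it stood at 780.4 (764 to 797) CPM at E19, then 338 (328 to 347) at P4, 416 (405 to 427) at P8 and 269.95 (262 to 279) at P21. In inhibitory neurons it stood at 402 (386 to 419) CPM at E19, then 252 (239.6 to 264) at P4, 362 (351 to 373) at P8 and 331 (320.1 to 341) at P21. EN12 stood at 3590.3 (3328 to 3867), 2282 (2154 to 2415), 2015 (1928 to 2106) and 1540.4 (1472 to 1612) CPM from E19 to P21. EN2 stood at 2040.2 (1979.9 to 2102), 1247 (1186 to 1311), 1787 (1693 to 1886) and 777 (714 to 843) CPM. IN3, the inhibitory one, stood at 2370.3 (2199.9 to 2550.5), 1773 (1629.7 to 1926), 1572 (1514 to 1632) and 1433 (1381 to 1486) CPM. These 3 were the only subtypes at 50% or more of the leading level in each library. In each of the first 3 libraries EN12 stood above both others by more than counting error, and at P21 its interval overlapped that of IN3. IN4, with 1113, 845, 807 and 509 CPM, and IN10, with 979, 538, 396 and 276, formed the next inhibitory rank and EN10, with 1334, 433, 844 and 397, the next excitatory one at E19, P8 and P21, with EN11 ahead of it at P4 (524 CPM). IN1 moved furthest, from 350.1 (327 to 375) CPM at E19 and 184 (167 to 202) at P4 to 36.3 (24.1 to 52.5) at P8 and 12.01 (7.12 to 18.98) at P21. The non-neural level in CPM was 51.2 at E19, then 41.96 at P4, 58.3 at P8 and 32.7 at P21.

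Which neuron class had more Meis2 depended on how the subtypes were weighted. The log2 ratio of excitatory to inhibitory neurons was 0.95 (0.88 to 1.01) at E19, then 0.42 (0.34 to 0.50) at P4, 0.20 (0.14 to 0.26) at P8 and −0.29 (−0.35 to −0.22) at P21, so that it passed from the excitatory to the inhibitory side. With subtypes weighted alike it was 0.60 at P21, on the excitatory side, and with each nucleus thinned to 2000 UMIs it was −0.020 at P4. The captured shares moved between libraries: EN2 made up 21.4% of excitatory nuclei at E19 and 5.28% at P21, EN12 1.64% and 6.01%, and IN3 7.50% and 17.03% of inhibitory nuclei. IN3 held 29.9% of the Meis2 UMIs of inhibitory neurons at E19 and 76.4% at P21. From E19 to P21 the class ratio in inhibitory neurons was −0.28 (−0.35 to −0.21), although Meis2 was lower at P21 in each of the 12 inhibitory subtypes, from −0.72 (−0.84 to −0.60) in IN3 to −4.38 (−4.88 to −3.88) in IN1, in IN9 and IN12 within counting error. Holding the inhibitory subtypes at their E19 shares, a calculation added after the data were seen, gave −1.61. In excitatory neurons the same calculation gave −1.53 beside −1.51 (−1.57 to −1.46) as captured.

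Meis1 marked IN7 and, less strongly, EN10. In excitatory neurons it stood at 108 (102 to 114) CPM at E19, then 38.7 (35.6 to 42.03) at P4, 43.3 (39.8 to 46.99) at P8 and 47.6 (44.1 to 51.3) at P21. In inhibitory neurons it stood at 59.2 (53.2 to 65.7) CPM at E19, then 51.8 (46.4 to 57.7) at P4, 102 (96.03 to 108) at P8 and 74.4 (69.5 to 79.6) at P21. IN7 stood at 796 (675 to 932), 949.9 (830.1 to 1082), 916 (855 to 981) and 679 (625 to 737) CPM and was first in all 4 libraries. It held 43.3% of the Meis1 UMIs of inhibitory neurons at E19 and 68.3%, 73.6% and 68.97% later, with 3.36% to 8.65% of the nuclei. EN10 stood at 673 (586 to 769.97), 239 (198 to 286), 303 (256 to 356) and 284 (241 to 332) CPM and overlapped IN7 at E19 only. IN11 followed among inhibitory subtypes with 129.6 (78.02 to 202), 71.5 (43.05 to 112), 299.8 (252 to 354) and 189 (151 to 234) CPM. At P21 the other 10 inhibitory subtypes stood at 0 to 62.1 CPM, beside a non-neural level in CPM of 42.3 at E19, then 27.97 at P4, 33.3 at P8 and 29.8 at P21. The subtypes above the interval of that level in all 4 libraries were EN10, EN13, IN7 and IN11.

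The class levels of Meis1 differed in direction between E19 and P21. The log2 ratio of P21 to E19 was −1.10 (−1.22 to −0.97) in excitatory and 0.31 (0.14 to 0.48) in inhibitory neurons. The ratio of excitatory to inhibitory neurons went from 0.81 (0.65 to 0.97) at E19 to −0.38 (−0.56 to −0.20) at P4, −1.15 (−1.28 to −1.01) at P8 and −0.59 (−0.73 to −0.46) at P21. At P8 it was past 1 on the inhibitory side, as were 1.66% of genes, and short of it with subtypes weighted alike (−0.89). The difference in direction was not tested. The higher inhibitory level at P21 was not found within most subtypes: of the 8 with at least 20 CPM at either stage, 7 were lower at P21, IN7 itself with a log2 ratio of −0.23 (−0.48 to 0.038), and IN11 had one of 0.53 (−0.18 to 1.29), both within counting error. With subtypes weighted alike the inhibitory ratio was −0.31, with IN7 left out −0.40, and with subtypes at their E19 shares −0.48. Among the 11 excitatory subtypes compared, 7 were lower at P21 and 4 higher; only EN12, from 15.5 (3.19 to 45.2) to 65.3 (51.8 to 81.3) CPM, was higher beyond counting error.

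Pbx3 was spread widely over neuron subtypes and more evenly at each later stage. In excitatory neurons it stood at 478 (465 to 490.3) CPM at E19, then 269 (261 to 278) at P4, 335 (325 to 345) at P8 and 279 (271 to 288) at P21. In inhibitory neurons it stood at 549.7 (531 to 569) CPM at E19, then 415 (399 to 431) at P4, 485 (472 to 498) at P8 and 304 (294 to 314) at P21. The inhibitory level was the higher one at each stage, with log2 ratios of excitatory to inhibitory neurons of −0.20 (−0.26 to −0.14) at E19, then −0.61 (−0.68 to −0.54) at P4, −0.53 (−0.59 to −0.47) at P8 and −0.12 (−0.18 to −0.055) at P21. IN3 led at E19 and P4, EN3 stood level with it at P8, and EN3 led at P21. IN3 stood at 1939.97 (1786 to 2104), 1224 (1105 to 1352), 780.1 (739 to 822) and 405 (377 to 434) CPM from E19 to P21. IN7, the Meis1 subtype, stood at 1435 (1271 to 1615), 857 (744 to 984), 757 (701 to 815) and 406 (365 to 451) CPM. Of the excitatory subtypes with much Tfap2b, EN3 stood at 1416 (1339 to 1497), 753 (698 to 812), 821 (774 to 870.2) and 540.5 (509 to 573) CPM of Pbx3 and EN4 at 1281 (1189 to 1378), 752 (686 to 822), 635 (594 to 677) and 453 (417 to 491). At later stages the subtypes lay closer together: the leading subtype stood at 5.47 times the level of the median subtype at E19, then 3.50 times at P4, 2.17 times at P8 and 1.82 times at P21, and 4, 7, 11 and 13 subtypes reached 50% of the leading level. The same ratio for Meis2 was 12.2 at E19 and 23.1 at P21. EN6, EN13, IN4 and IN8 were among the low subtypes at all stages, with 69.4, 42.2, 31.2 and 42.1 CPM in EN6 and 169.7, 84.3, 71.9 and 64.3 in IN4. Pbx3 cannot be set against the non-neural level, because 2 of those classes were themselves high: vascular leptomeningeal cells stood at 1023, 696, 738 and 477 CPM and the class labelled epithelial at 922, 1123, 1579 and 1557, against 354, 317, 329 and 324 in microglia and 234, 288, 319 and 163 in endothelial cells.

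Among excitatory neurons Meis2 was found more often in nuclei with Meis1 than in those without, and among inhibitory neurons it was not. Excitatory neurons with a Meis1 UMI had a Meis2 UMI in 75.7% (70.7 to 80.2) at E19, then 59.6% (52.8 to 66.03) at P4, 66.5% (59.8 to 72.7) at P8 and 56.4% (49.8 to 62.9) at P21, against 55.6%, 36.3%, 48.2% and 39.96% of those without Meis1. In inhibitory neurons the shares were 48.5%, 40.2%, 48.99% and 36.6% with and 45.6%, 36.6%, 51.6% and 50.9% without, with overlapping intervals at E19, P4 and P8 and intervals apart at P21, where the share was 36.6% (29.4 to 44.3) with Meis1 and 50.9% (46.7 to 55.1) without. After thinning to 2000 UMIs the inhibitory shares with and without were 17.6% and 33.3% at P8 and 13.04% and 29.2% at P21, apart in both, and the excitatory ones 27.3% and 21.1% at P21, overlapping. This pair was not compared within subtypes, and the part of the subtype mixture in these shares was not tested. The leading Meis1 subtypes differed in Meis2: IN7 had 72.8, 21.02, 47.4 and 18.7 CPM of Meis2, while EN10 had 1334, 433, 844 and 397.

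**Figure D3:**
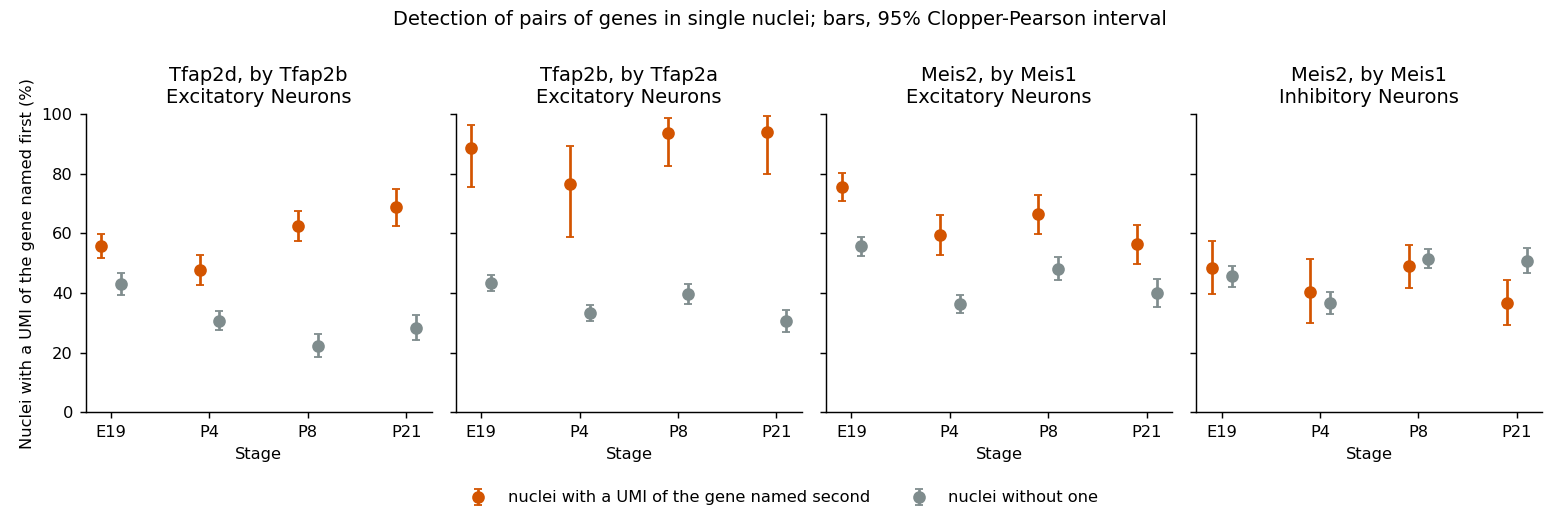
Percent of nuclei with a UMI of 1 gene (vertical axis) at each stage (horizontal axis), among nuclei with (orange) and without (grey) a UMI of the gene named after "by", with 95% Clopper-Pearson intervals and no thinning. Orange lies above grey in the 3 excitatory panels at each stage, and in the inhibitory panel the points overlap until P21.

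**Figure D4:**
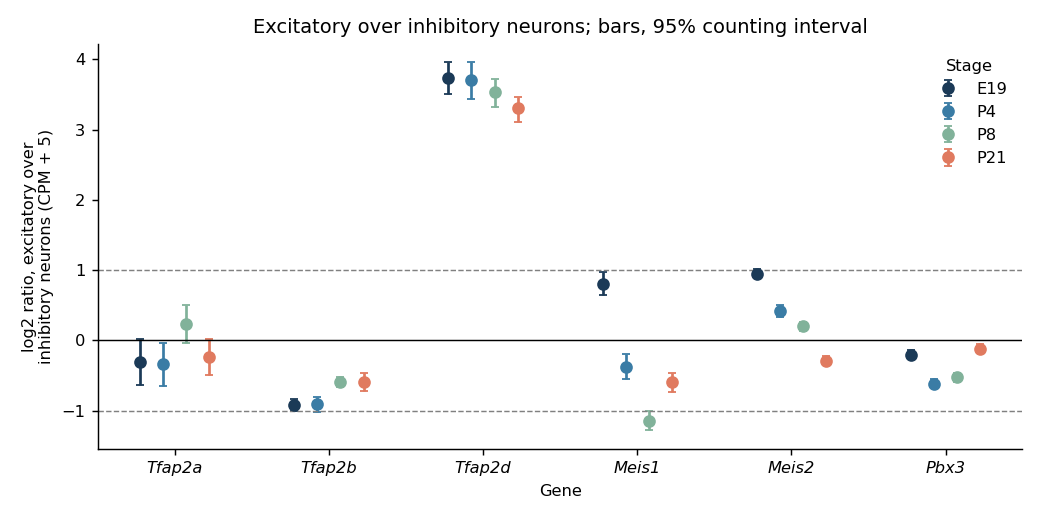
Log2 ratio of excitatory to inhibitory neurons (vertical axis, CPM + 5) for each gene (horizontal axis) in the 4 libraries, with 95% counting intervals and dashed lines at 1 and -1. Tfap2d lies above 3 in every library, Tfap2b below 0 in every library, and Meis1 and Meis2 pass from above 0 at E19 to below 0 at P21.

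Most of the 6 genes stood highest before birth. Of the 5 with at least 20 CPM in excitatory neurons, all were highest at E19, where 34.8% of all genes had their highest value. In inhibitory neurons Tfap2b, Meis2 and Pbx3 were highest at E19, against 34.9% of genes, and Meis1 at P8. From E19 to P21 in excitatory neurons Tfap2b (log2 ratio −1.65, interval −1.76 to −1.54), Tfap2d (−2.15, interval −2.25 to −2.05), Meis1 and Meis2 were lower by 1 or more, as were 10.7% of genes, and Pbx3 stood at −0.76 (−0.82 to −0.71). In inhibitory neurons only Tfap2b was (−1.98, interval −2.08 to −1.87), against 11.3% of genes, with Pbx3 at −0.84 (−0.91 to −0.78). With subtypes weighted alike 3 members passed in inhibitory neurons, Meis2 at −1.18 and Pbx3 at −1.16 being added. For Meis1 in excitatory neurons the ratio was just short of 1 under that weighting, −0.97, and under median-of-ratios scaling, −0.98, which also moved the median of all genes from −0.061 to 0.060. The comparisons between stages share libraries.

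The steps differed in timing. From E19 to P4 Tfap2d (−1.38, interval −1.46 to −1.30), Meis1 (−1.36, interval −1.49 to −1.23) and Meis2 (−1.20, interval −1.25 to −1.15) were lower by 1 or more in excitatory neurons, as were 0.701% of genes. With subtypes weighted alike these ratios were −0.72, −0.95 and −0.73, all short of 1, and that of Meis2 without EN7, a subtype that made up 15.8% of excitatory nuclei at P4 and 2.47% at E19, was −0.95. From P8 to P21 the only member lower by 1 or more was Tfap2b, in excitatory (−1.52, interval −1.63 to −1.41) and in inhibitory neurons (−1.52, interval −1.63 to −1.42), against 3.2% and 3.28% of genes. For Meis1 in excitatory neurons the later steps were 0.14 (−0.0082 to 0.29) and 0.12 (−0.023 to 0.27), each within counting error.

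Within subtypes the lower level at P21 was most uniform for Tfap2b. Tfap2b was lower at P21 than at E19 by a log2 ratio of 1 or more in 11 of 11 excitatory and 12 of 12 inhibitory subtypes with at least 20 nuclei in both libraries, beyond counting error in each; 10 of these 23 stood above the non-neural level in every library. Over all genes with at least 20 CPM at either stage, 15.5% of gene and subtype pairs in excitatory and 17.3% in inhibitory neurons were that much lower. For Meis2 8 of 11 excitatory and 10 of 12 inhibitory subtypes passed, for Pbx3 5 of 11 and 5 of 12, and for Tfap2d 6 of the 9 excitatory subtypes with at least 20 CPM. Tfap2d differed most in EN2 (−3.04, interval −3.41 to −2.69) and stayed within counting error in EN13 (−0.42, interval −1.10 to 0.31) and EN12 (−0.89, interval −1.99 to 0.31). Pbx3 differed most in IN3 (−2.25, interval −2.40 to −2.09) and IN7 (−1.81, interval −2.04 to −1.58), and was within counting error of its E19 level in 6 subtypes, EN2, EN6, EN8, EN10, IN6 and IN10, from −0.66 (−1.49 to 0.24) in EN6 to 0.34 (−0.20 to 0.90) in EN10.

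**Figure D5:**
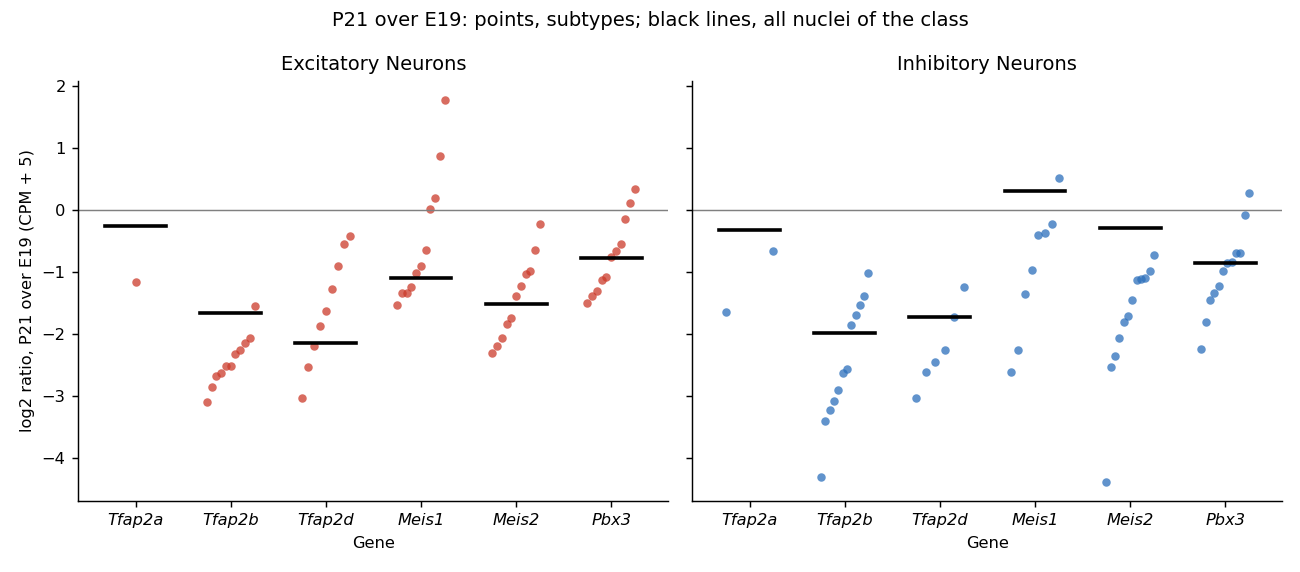
Log2 ratio of P21 to E19 (vertical axis, CPM + 5) for each gene (horizontal axis) in excitatory (left) and inhibitory (right) neurons, with a point per subtype that had at least 20 nuclei in both libraries and 20 CPM in either, and a black line for the class as captured. In inhibitory neurons the class line of Meis2 lies above all 12 subtype points and that of Meis1 above 7 of 8.

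Outside neurons Meis1 and Meis2 were genes of astrocytes and of the oligodendrocyte lineage. Astrocytes stood at 503 (458 to 551) CPM at E19, then 429 (389 to 471) at P4, 481 (444 to 522) at P8 and 334 (306 to 363) at P21 for Meis1. For Meis2 they stood at 1009.5 (946 to 1076) CPM at E19, then 549 (504 to 596) at P4, 859 (808 to 912) at P8 and 563 (527 to 600.4) at P21. Both genes were above both neuron classes beyond counting error at every stage. The authors' protoplasmic astrocytes had Meis1 at 511 at E19, then 464 at P4, 494 at P8 and 344 at P21 and their fibrous astrocytes at 472 at E19, then 306 at P4, 422 at P8 and 273 at P21 CPM. In the oligodendrocyte lineage Meis1 was at 257 at E19, then 172 at P4, 179.5 at P8 and 56.8 at P21 CPM in precursor cells. At P21 it stood at 126 (96.1 to 161) in committed and 374 (344 to 405) in myelinating oligodendrocytes. Meis2 had the opposite order at P21, with 217 (168 to 277) CPM in precursors and 68.3 (55.9 to 82.5) in myelinating cells. Myelinating cells reached 20 nuclei at P21 only, so this is an order within 1 library. Dividing cells, 10 to 36 nuclei per library, had Meis1 at 471, 331, 204 and 83.2 and Meis2 at 806, 462, 373 and 149.8 CPM. Tfap2a and Tfap2d did not exceed 9.43 and 40.7 CPM in any class outside neurons; the latter, in the oligodendrocyte lineage at E19, rests on 8 UMIs in 47 nuclei.

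The gene most like a member over neuron profiles was, for 4 of the 6, a noncoding gene at the same locus. Likeness was Pearson's r of log2(CPM + 5) over the 96 profiles of a subtype in a library with at least 20 nuclei, among 11431 other genes. The profiles share libraries and the subtypes were made from these nuclei, so r is a description. Tfap2a was followed most closely by its antisense gene Gm26688 (0.88), Meis1 by Gm16141 (0.79) and Pbx3 by C79798 (0.84), both antisense genes inside the gene, and Meis2 by G630016G05Rik (0.89), which starts 1.39 kb from Meis2 on the other strand without overlap. Gm26688 stood at 10.7, 6.11, 10.8 and 7.19 CPM in excitatory neurons from E19 to P21 and reached 152 CPM in EN13 at E19. G630016G05Rik stood at 23.2, 10.7, 15.5 and 14.6 CPM in excitatory neurons and 8.72, 7.51, 11.4 and 16.99 in inhibitory neurons. The sources used here do not state whether strand was used in counting, so UMIs of an overlapping pair, and their likeness, cannot be told apart. Of the other overlapping genes Gm15825, antisense to the start of Tfap2d, stood at 5.90, 4.16, 6.44 and 6.44 CPM in excitatory and 0.335, 0.783, 0.902 and 0.442 in inhibitory neurons. Gm16140, Gm47061 and Gm47067 had 8, 8 and 3 UMIs in all neurons.

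Tfap2b and Tfap2a were like each other, and Tfap2b and Tfap2d less so. Tfap2b was led by Gm26688 (0.75), Tfap2a (0.69) and Tmem44 (0.65), while its r with the neighbouring Tfap2d was 0.22. Tmem44 ranked 13 with profiles of at least 50 nuclei, and 81, 221, 217 and 7 with profiles of E19, P4, P8 or P21 alone. The third gene by likeness to Tfap2a was the noncoding gene Gm47352 (0.61), which ranked 18 by Spearman's correlation and 120 with profiles of at least 50 nuclei. Tfap2d was led by Barhl2 (0.81) and Lhx9 (0.69), both homeodomain genes, and Slc17a6 (0.68), the vesicular glutamate transporter VGLUT2 that marks the excitatory class itself. Lhx9 stood at 183, 135, 136 and 61.1 CPM in excitatory and 26.3, 18.9, 9.48 and 1.42 in inhibitory neurons. Meis2 was followed by Reln (0.70), the secreted protein reelin, and Atrnl1 (0.69), Meis1 by Sall4 (0.52) and Agap1 (0.49), and Pbx3 by Tmem108 (0.72) and Zfhx3 (0.68). The likeness to Meis1 depended on the measure: by Spearman's correlation Sall4 ranked 232 (0.25) and Agap1 47 (0.33). Reln led in IN3 at each stage, with 904, 1079, 1282 and 1438 CPM, and Sall4, a zinc-finger gene, led in IN7 at each stage with 31.2, 50.4, 41.9 and 16.4 CPM. Pairs of members had r between −0.24 (Tfap2a and Pbx3) and 0.69 (Tfap2a and Tfap2b), with 0.39 for Tfap2d and Meis2 and 0.11 for Meis1 and Meis2.

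Among relatives and partners of the 6 genes, Mkx and Wwox were the ones that reached 20 CPM and stood higher at P21 by a log2 ratio of 1 or more. Of 24 listed genes, 9 reached 20 CPM in a neuron class of at least 1 library. Among the AP-2 relatives Tfap2c and Tfap2e stayed at or below 0.939 CPM in both classes. Kctd1, an inhibitor of AP-2 activity, stood at 124, 108, 129 and 126 CPM in excitatory neurons from E19 to P21. Wwox, a binding partner of AP-2 proteins, stood at 347, 361, 471 and 685 in excitatory and 303, 388, 392 and 683 in inhibitory neurons. Pbx4 stood at 57.9, 58.3, 81.95 and 69.4 CPM in excitatory and 46.3, 38.7, 47.2 and 45.4 in inhibitory neurons. Other TALE genes above 20 CPM included Meis3 (46.8, 40.01, 30.7 and 23.8 CPM in excitatory neurons), Pknox1 (35.2, 25.5, 29.04 and 25.1), Pknox2 (89.5, 91.98, 101 and 123), Irx2 (23.1, 17.2, 14.6 and 10.4 in inhibitory neurons) and Mkx. Mkx stood at 5.03, 14.03, 23.96 and 58.9 CPM in excitatory and 2.35, 15.8, 13.6 and 84.4 in inhibitory neurons. From E19 to P21 it was higher in both classes, 2.67 (2.46 to 2.87) in excitatory and 3.60 (3.31 to 3.84) in inhibitory neurons on the log2 scale. For Wwox the ratio was 1.16 (1.08 to 1.23) in inhibitory and 0.97 (0.92 to 1.02) in excitatory neurons, where it missed 1. These were 1 of 8 and 2 of 9 relatives past 1 upward, beside 5.35% and 5.83% of all genes, and of those 8 and 9 none was lower by 1 or more. With subtypes weighted alike 1 of the 9 was, Irx2 in inhibitory neurons (−1.02). Below 20 CPM, and named after their values were seen, Irx1 (−1.34, interval −1.54 to −1.11), Cited2 (−1.29, interval −1.50 to −1.05) and Irx2 (−1.13, interval −1.35 to −0.89) were lower by 1 or more in excitatory neurons. In inhibitory neurons Irx1 was (−1.08, interval −1.37 to −0.77), and so was Irx5, with 14.4 CPM at E19 and 4.07 at P21. The median log2 ratio of these 8 and 9 relatives was 0.13 in excitatory and −0.15 in inhibitory neurons, beside −1.51 over the 5 and −0.56 over the 4 members that reached 20 CPM, and −0.061 and −0.037 over all genes.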

How the data were processed

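Nuclei were captured with 10x Genomics 3′ v3 chemistry and, per the labels' protocols, aligned with Cell Ranger 3.0.2 to mm10 transcripts extended to pre-mRNA, so intronic reads counted. Long genes gather more intronic reads, so levels of different genes are not compared. The authors deposited raw UMI counts per gene and nucleus, with stage, class, subtype and total counts per nucleus; the totals were recomputed and equalled the deposited ones in all 9724 nuclei. One protocol text abbreviates the embryonic stage differently from the sample labels, which were followed. A further 10 columns of that table were not used. The sources used here do not give how nuclei and doublets were filtered or subtypes named. The 6 genes, the list of relatives and the settings were chosen with earlier results of these data known.

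Counts were summed per library and class or subtype (at least 20 nuclei) and scaled to CPM with Python 3.11.15, numpy 2.4.6, scipy 1.17.1 and pandas 2.3.3. Intervals were exact Poisson for CPM, Clopper-Pearson for shares and the exact binomial split for log2 ratios (5 CPM added), at 95%. They cover counting error only. With 1 library per stage no test was made. Background shares count, of the genes that reached 20 CPM in the higher group, those with a log2 ratio of 1 or more. Named genes were the 6 members, relatives with at least 20 CPM in a neuron class (1 is not reported here), the 3 genes most like each member and overlapping genes; glial subtypes were described after values were seen. Functions were tested on simulated counts. Of the 31053 gene identifiers, 31011 were found in GENCODE M21; promoter windows are from RefSeq on GRCm38.p6.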

Additional observations from a re-analysis of the deposited data

Results flagged for a closer look

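Meis1 was the only member whose class levels at P21 and E19 moved in opposite directions beyond counting error, with a log2 ratio of −1.10 in excitatory and 0.31 in inhibitory neurons. The difference between the classes was not tested, since each stage had 1 library. The inhibitory value turned to −0.48 with subtypes at their E19 shares, and the share of inhibitory nuclei in IN7 was 3.36% at E19 and 8.65% at P21.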

How the results depend on the processing

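No paired analysis was possible because each stage had 1 library. The direction of some small ratios depended on the weighting. With subtypes weighted alike, signs turned for Tfap2a, excitatory over inhibitory at P4 (0.18), Meis2, the same at P21 (0.60), Tfap2a (−0.036) and Pbx3 (−0.13) from P4 to P8 in excitatory neurons, Meis2 (−0.21) and Pbx3 (−0.051) in that step in inhibitory neurons, and Meis1 from E19 to P21 in inhibitory neurons (−0.31); the latter was −0.48 with E19 subtype shares held and −0.40 without IN7, both added after the data were seen. Thinning to 2000 UMIs turned the excitatory over inhibitory ratio of Tfap2a at P4 (0.19) and of Meis2 at P4 (−0.020) and P8 (−0.13), and weighting nuclei alike that of Meis2 at P8 (−0.16). Members lower by 1 or more from E19 to P21 in inhibitory neurons numbered 3 with subtypes weighted alike. Of the 18 genes most like the members, 15 stayed among the leading 3 by Spearman's correlation, all but Gm47352, Sall4 and Agap1. With profiles of at least 50 nuclei 11 stayed, and 9, 10, 8 and 8 with profiles of E19, P4, P8 or P21 alone. The cause of these changes was not tested. Of the 24 leading subtypes of member and library, all stayed first with nuclei weighted alike, 17 after thinning and 21 without the 3 nuclei with most UMIs of the gene. Median-of-ratios scaling moved the median log2 ratio of all genes from E19 to P21 from −0.061 to 0.060 in excitatory and from −0.037 to 0.069 in inhibitory neurons; no other setting moved a median by more than 0.1. Depth limits Tfap2a, with 34 to 82 UMIs per neuron class and library, and Tfap2d in inhibitory neurons, with 23, 38 and 19 UMIs at P4, P8 and P21. Of the relatives that reached 20 CPM in inhibitory neurons, 1 was lower by 1 or more at P21 with subtypes weighted alike, against 0.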
